A study of Mus musculus with 8 samples.

Results

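Cholesterol is built from acetyl-CoA through the mevalonate pathway, squalene and lanosterol, and a T cell that leaves rest to divide needs it for new membrane. The transcription factor SREBP2, encoded by *Srebf2*, turns on nearly every enzyme of this route. It is held in the endoplasmic reticulum by SCAP and INSIG proteins while sterols are plentiful, and is released by proteolysis when they run low, so the amount of its mRNA and the activity of the protein are separate quantities. The genes described here are *Srebf2* and 7 enzymes of the pathway, namely *Hmgcs1*, *Idi1*, *Fdps*, *Fdft1*, *Sqle*, *Lss* and *Cyp51*. They were taken by name from the gene count table, which held all 8 among its 11911 genes, and all 8 were among the 11317 genes with enough counts to be tested.

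The samples were 8 cultures of splenic naïve CD4+ T cells held for 36 hours under Treg-polarizing conditions with TGF-β, antibodies to CD3 and CD28, and blocking antibodies to IFN-γ and IL-4. The WT group was 4 cultures from Foxp3YFP-Cre mice, and the KO group was 4 cultures from Tdrd3fl/fl/Foxp3YFP-Cre mice. Every culture of either group therefore carried the Foxp3YFP-Cre allele, and all mice were on the C57BL/6J background. Cre is made from the *Foxp3* locus, so *Tdrd3*, which encodes a reader of methylated arginine, is deleted only in cells that have switched on *Foxp3*. The methods name no sort of such cells before RNA isolation, and the KO libraries are RNA of the whole CD4+ culture. The ages of the mice used for RNA-seq are not given in the sources used here, and the methods state 3 mice per group where the labels give 4 samples. Whether each sample is a separate mouse is therefore open. The tests and SDs here treat the 4 samples of a group as independent. Values are normalized CPM, counts scaled to a common library size with the TMM factors of edgeR.

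The libraries held 13258277 to 16001720 rounded counts, and the smallest amount taken as detected, 3 counts, was 0.188 to 0.225 CPM. *Tdrd3* itself had 9.95 to 18.8 CPM in WT and 10.7 to 13.7 CPM in KO. The genotypes overlapped in the deleted gene through WT replicate 3 alone, at 9.95 CPM, the other WT libraries having at least 15.1 CPM. The KO mean of *Tdrd3* was lower, at 12.1 CPM against 15.4 CPM in WT (log2 fold change of KO over WT −0.35). This difference had an unadjusted edgeR P of 0.037, an edgeR adjusted p of 0.496 and a two-sided exact permutation p of 0.229. T cell markers were present in every library, at 1804 to 1894 CPM summed over 6 of 7 markers in WT and 1801 to 1849 CPM in KO (*Trac* was not analysed here). The 3 B cell markers in the table summed to at most 3.71 CPM and the 2 myeloid markers to at most 2.11 CPM, while the defining genes *Ms4a1*, *Csf1r* and *Itgam*, and all NK, erythroid and platelet markers of the lists, were not analysed here. *Cd8a* stood at 11.3 CPM in WT replicate 3 and at no more than 1.37 CPM in the other libraries. The Treg markers *Foxp3*, *Il2ra*, *Ctla4*, *Ikzf2*, *Ikzf4* and *Tnfrsf18* together gave 3581 to 3717 CPM in WT and 3361 to 3476 CPM in KO. Most of each sum was *Il2ra*, at 2179 to 2370 CPM in WT and 2025 to 2169 CPM in KO. *Foxp3* overlapped between the genotypes, at 93.8 to 122 CPM in WT and 77.2 to 105 CPM in KO. Of the 6 markers, 5 had a log2 fold change below 0 and 1 above. In bulk RNA, fewer cells of a type and less RNA per cell cannot be told apart.

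The 8 genes were well expressed in cultures of both genotypes. Per kilobase of the principal transcript (RPKM), *Fdps* had the highest median level of the 8 genes, at 135, followed by *Srebf2* at 128, *Idi1* at 118, *Hmgcs1* at 101, *Cyp51* at 93.1, *Sqle* at 68.8, *Fdft1* at 29.4 and *Lss* at 23.5. The ranges over the 8 libraries overlapped between neighbours from *Fdps* down to *Cyp51*, and those of *Cyp51* and *Sqle*, *Sqle* and *Fdft1*, and *Fdft1* and *Lss* were apart. By this level *Fdps* ranked 383 and *Lss* 3218 among 11316 genes. The place of *Fdps* rests on its short principal transcript of 1306 bases: when the combined length of all its annotated exons was used, *Fdps* fell to a median of 36.1 RPKM and *Idi1*, at 86.3 RPKM, was the highest of the 8.

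None of the 8 genes differed between the genotypes at an edgeR adjusted p below 0.05, a level reached by 0.265% of all tested genes, and none at an unadjusted P below 0.05 in the same test, reached by 9.30%. The adjusted p of the 8 genes ran from 0.600 for *Idi1* to 0.980 for *Sqle*. Log2 fold changes (KO over WT) lay between −0.10 for *Idi1* and 0.01 for *Fdps*, with a median of −0.03 against 0.00 for all tested genes. KO means were below WT means in 7 of the 8, *Fdps* being the exception, and 49.4% of all tested genes had a log2 fold change below 0. In no member did the 4 KO libraries separate from the 4 WT libraries, which happened in the lower direction in 2.63% of tested genes and in the higher direction in 2.25%. Of the 95% intervals of the 8 changes, the lowest bound was −13.3% (*Idi1*) and the highest 8.03% (*Fdps*).

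**Figure D1:**
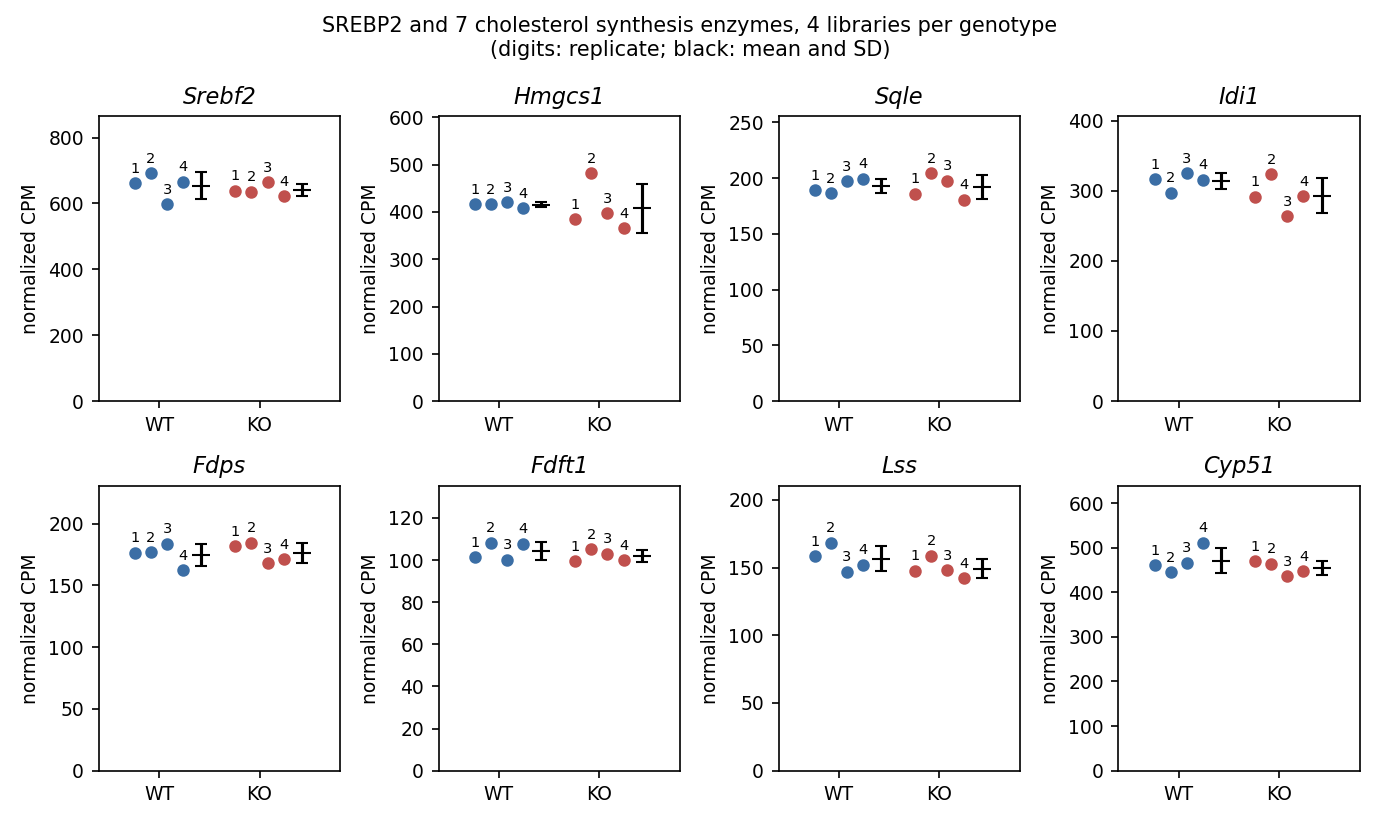
Normalized CPM (vertical axes, starting at 0) of *Srebf2* and the 7 enzymes in each WT (blue) and KO (red) library, with the replicate number above each point and the group mean and SD in black. The genotypes overlap in every panel, and KO replicate 2 stands above the other libraries for *Hmgcs1*, at 482 CPM.

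*Srebf2* (ENSMUSG00000022463, chromosome 15 of GRCm39, 82031382 to 82089580, plus strand) had 662, 691, 597 and 666 CPM in WT replicates 1 to 4, and 638, 636, 665 and 623 CPM in KO replicates 1 to 4. WT replicate 3 was the lowest of all libraries and WT replicate 2 the highest, with the KO libraries between them. The means were 654 ± 40.4 CPM (SD, n = 4) in WT and 640.3 ± 17.8 CPM (SD, n = 4) in KO, a change of −2.08% with a 95% interval from −8.02% to 4.23% (edgeR adjusted p = 0.900, two-sided exact permutation test p = 0.657).

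*Hmgcs1* (ENSMUSG00000093930, chromosome 13, 120151915 to 120169796, plus strand) encodes the synthase that makes HMG-CoA early in the mevalonate pathway. Its WT libraries were nearly equal, at 416, 416, 420.0 and 408 CPM. In KO replicates 1 to 4 it had 385, 482, 398 and 365 CPM, so that 3 KO libraries lay below every WT library and KO replicate 2 lay above them all. The SD was 4.83 CPM in WT and 51.3 CPM in KO, around means of 415 and 407 CPM. The change was −1.83% (95% interval −10.1% to 7.18%, edgeR adjusted p = 0.939, two-sided exact permutation test p = 0.771). Its value turned on single libraries: without KO replicate 2 the log2 fold change was −0.12 with an unadjusted edgeR P of 0.0112 (edgeR adjusted p = 0.237), and with KO replicates 1 and 4 both left out it was 0.08. That P was the lowest over 17 alternative settings and the only 1 of them below 0.05. The fit left out the sole KO library above WT, so a lower P was built in.

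*Hmgcs1* is a textbook target of SREBP2, which binds the sterol regulatory element (SRE) beside factors such as NF-Y, the reader of the CCAAT box. In the 300 bases upstream of each gene's principal start in GENCODE M39, the SRE letters TCACNCCAC were searched on both strands. They were present in 139 of 11910 genes of the table (1.17%), and among the 21 synthesis enzymes and *Srebf2* in *Hmgcs1* alone. The CCAAT box, CCAAT on either strand, was present in 7 of the 8 genes (*Cyp51* being without it) and in 40.5% of all the genes, and the GC box GGGCGG in 5 of the 8 and in 51.8%. The stretches below, 60 bases each from GRCm39 and read 5′ to 3′ on the gene's strand, show the SRE of *Hmgcs1* and the CCAAT box closest to the start in *Srebf2*, *Fdps* and *Sqle*, the motif shared by most of the 8 genes. Capitals mark the matched letters, ATTGG being the CCAAT box on the other strand. The start is that of the principal transcript, which for *Hmgcs1*, *Fdps* and *Sqle* is not the edge of the gene span printed in this report.
Hmgcs1, SRE beginning 232 bases before the start, chr13:120151724-120151783, plus strand: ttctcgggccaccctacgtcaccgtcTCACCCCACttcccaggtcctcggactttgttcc
Srebf2, CCAAT box beginning 47 bases before the start, chr15:82031307-82031366, plus strand: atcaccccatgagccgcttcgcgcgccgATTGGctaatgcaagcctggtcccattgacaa
Fdps, CCAAT box beginning 55 bases before the start, chr3:89009359-89009418, minus strand: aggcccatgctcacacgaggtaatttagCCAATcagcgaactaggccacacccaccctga
Sqle, CCAAT box beginning 63 bases before the start, chr15:59186791-59186850, plus strand: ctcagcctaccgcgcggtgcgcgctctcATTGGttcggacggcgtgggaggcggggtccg
A match is a description of letters, and no match says only that these letters are not in this window.

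The next members make the isoprenoid units. *Idi1* (ENSMUSG00000058258, chromosome 13, 8935537 to 8942487, plus strand), the isomerase that converts isopentenyl to dimethylallyl diphosphate, had 316, 297, 325 and 316 CPM in WT and 291, 324, 264 and 292 CPM in KO. KO replicate 2 lay among the WT libraries, and the other 3 KO libraries were below all of them. *Idi1* had the largest change of the 8 genes, −6.56% (95% interval −13.3% to 0.661%, edgeR unadjusted P = 0.0717 and adjusted p = 0.600, two-sided exact permutation test p = 0.229). Without KO replicate 2 its log2 fold change was −0.15, with an unadjusted edgeR P of 0.00552 and an adjusted p of 0.172, the lowest over 17 alternative settings, in which the adjusted p reached up to 1.00.

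*Fdps* (ENSMUSG00000059743, chromosome 3, 89000895 to 89009266, minus strand) makes farnesyl diphosphate, where sterol synthesis parts from protein prenylation. It had 176, 177, 184 and 162 CPM in WT and 182, 184, 168 and 171 CPM in KO, and all KO values lay inside the WT range or within 1 CPM of its top. The change was 0.868% (95% interval −5.82% to 8.03%, edgeR adjusted p = 0.960). *Fdft1* (ENSMUSG00000021273, chromosome 14, 63382599 to 63417027, minus strand), squalene synthase, takes the first step committed to sterols. It had 101, 108, 100.2 and 108 CPM in WT and 99.4, 105, 103 and 100.0 CPM in KO, the smallest spread of the 8 genes (coefficient of variation over all libraries 3.43%, against a median of 7.49% over all tested genes). *Fdft1* changed by −2.32% (95% interval −8.75% to 4.56%, edgeR adjusted p = 0.898). It shares its chromosome with *Tdrd3*.

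The remaining 3 enzymes carry squalene to the first sterols. *Sqle* (ENSMUSG00000022351, chromosome 15, 59186926 to 59203041, plus strand), the epoxidase that brings in oxygen, had 189, 186, 198 and 199 CPM in WT and 186, 204, 198 and 181 CPM in KO. Its means of 193 ± 6.42 CPM (SD, n = 4) and 192 ± 10.7 CPM (SD, n = 4) were the nearest to each other of the 8 pairs in relative terms, with a change of −0.378% (95% interval −6.79% to 6.47%, edgeR adjusted p = 0.980). *Lss* (ENSMUSG00000033105, chromosome 10, 76367422 to 76392972, plus strand) closes the sterol rings to lanosterol. It had 158, 168, 147 and 152 CPM in WT and 148, 159, 148 and 142 CPM in KO, with KO replicate 4 the lowest library and a change of −4.57% (95% interval −11.1% to 2.49%, edgeR adjusted p = 0.777). *Cyp51* (ENSMUSG00000001467, chromosome 5, 4131145 to 4154746, minus strand), the lanosterol demethylase, had 461, 445, 466 and 511 CPM in WT and 470.3, 464, 436 and 447 CPM in KO. WT replicate 4 stood above the other 7 libraries, and the change was −3.51% (95% interval −9.44% to 2.80%, edgeR adjusted p = 0.823).

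The counts of *Sqle*, *Lss* and *Cyp51* were within 0.1 of whole numbers in all 8 libraries. Those of *Idi1* were further from whole in 7 libraries, those of *Srebf2*, *Hmgcs1* and *Fdps* in 6 and those of *Fdft1* in 4. In GENCODE, exons of each member other than *Fdps* overlap a gene on the opposite strand, for example *Ctsb* at *Fdft1*, *Washc5* at *Sqle* and *Akap9* at *Cyp51*. Whether strand was used in counting is not given in the sources used here.

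The other 14 enzymes of cholesterol synthesis were all tested. None had an edgeR adjusted p below 0.05, and 2 of the 14, *Dhcr7* and *Lbr*, were lower in KO at an unadjusted P below 0.05, against 4.91% of all tested genes. Their median log2 fold change was −0.04, with 10 below 0 and 4 above, where 49.4% of all tested genes were below 0. *Dhcr7*, the reductase of the last step of the Kandutsch-Russell route, had 116, 118, 115 and 120.0 CPM in WT and 107, 109.7, 112 and 96.6 CPM in KO. All 4 KO libraries of *Dhcr7* were below all 4 WT libraries, as in 2.63% of all tested genes and in no other of the 21 enzymes (exact permutation p = 0.0286, two-sided, the smallest possible with 4 libraries in each genotype), with a log2 fold change of −0.14, a standard error of 0.0498, an edgeR P of 0.0114 and an adjusted p of 0.329. With KO replicates 1 and 4 both left out it was −0.08, with an edgeR P of 0.172, and without KO replicate 4 alone it was −0.10, with an edgeR P of 0.0629. *Lbr*, which encodes a sterol reductase that is also the lamin B receptor, had 346 ± 7.80 CPM (SD, n = 4) in WT and 326 ± 15.9 CPM (SD, n = 4) in KO (edgeR adjusted p = 0.516), and its unadjusted edgeR P rose to 0.0727 to 0.172 when KO replicate 1 or 4, or WT replicate 1, 2 or 4, was left out.

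**Figure D2:**
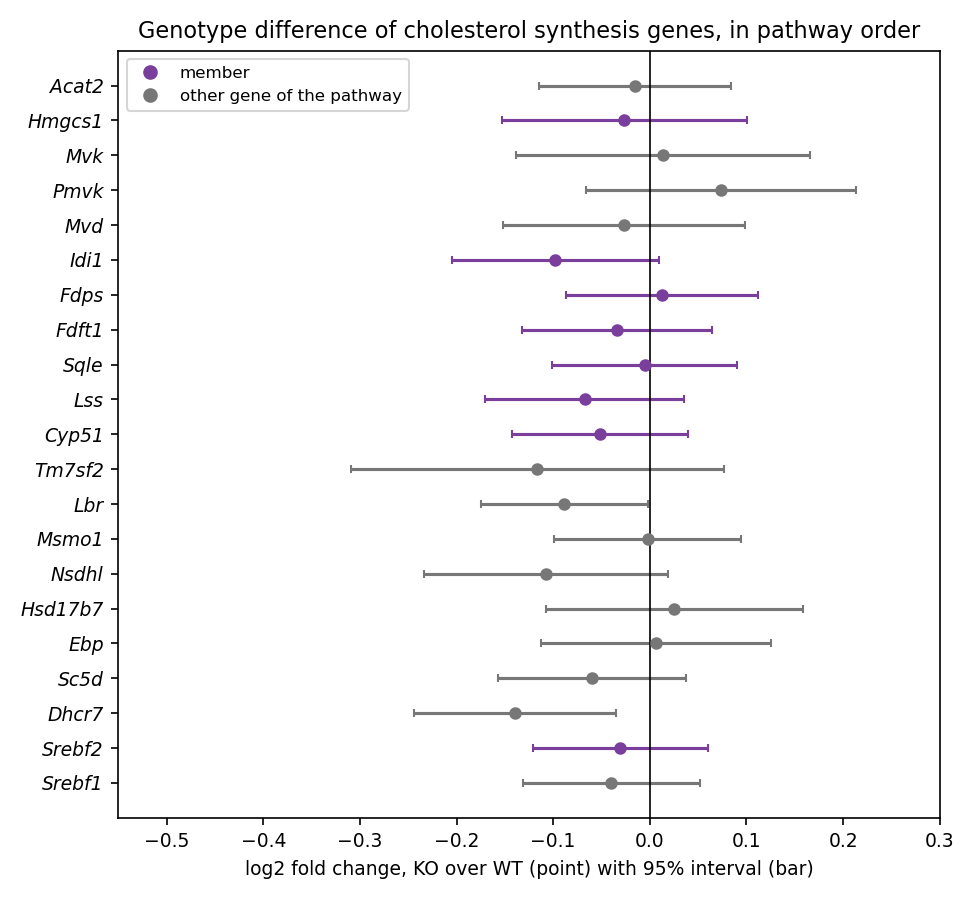
Log2 fold change of KO over WT (horizontal axis) with its 95% interval for enzymes of the pathway in their order and for *Srebf2* and *Srebf1*, with members in purple and other genes in grey. The points lie between −0.14 for *Dhcr7* and 0.07 for *Pmvk*, and 2 intervals, those of *Dhcr7* and *Lbr*, leave out 0.

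Over the 7 member enzymes and the 14 others, the libraries of a genotype were not alike. The median of the 21 enzymes' deviations from their means over the 8 libraries was above 0 in all 4 WT libraries, by 0.762% to 3.61%. It was −3.32%, −2.32% and −3.93% in KO replicates 1, 3 and 4, and 3.30% in KO replicate 2. KO replicate 4 was the lowest library in 5 of the 21 enzymes and KO replicates 1 and 3 in 4 each, while KO replicate 2 and WT replicate 1 were the lowest in 0. WT replicate 4 was the highest library in 7 enzymes, WT replicate 2 in 6 and KO replicate 2 in 5. KO replicate 2 was also the deepest library, at 16001720 counts, and had the most *Foxp3* of the KO libraries, at 105 CPM against 77.2, 93.2 and 78.1 CPM in KO replicates 1, 3 and 4. The part of depth or of *Foxp3*+ cells in these values was not tested.

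**Figure D3:**
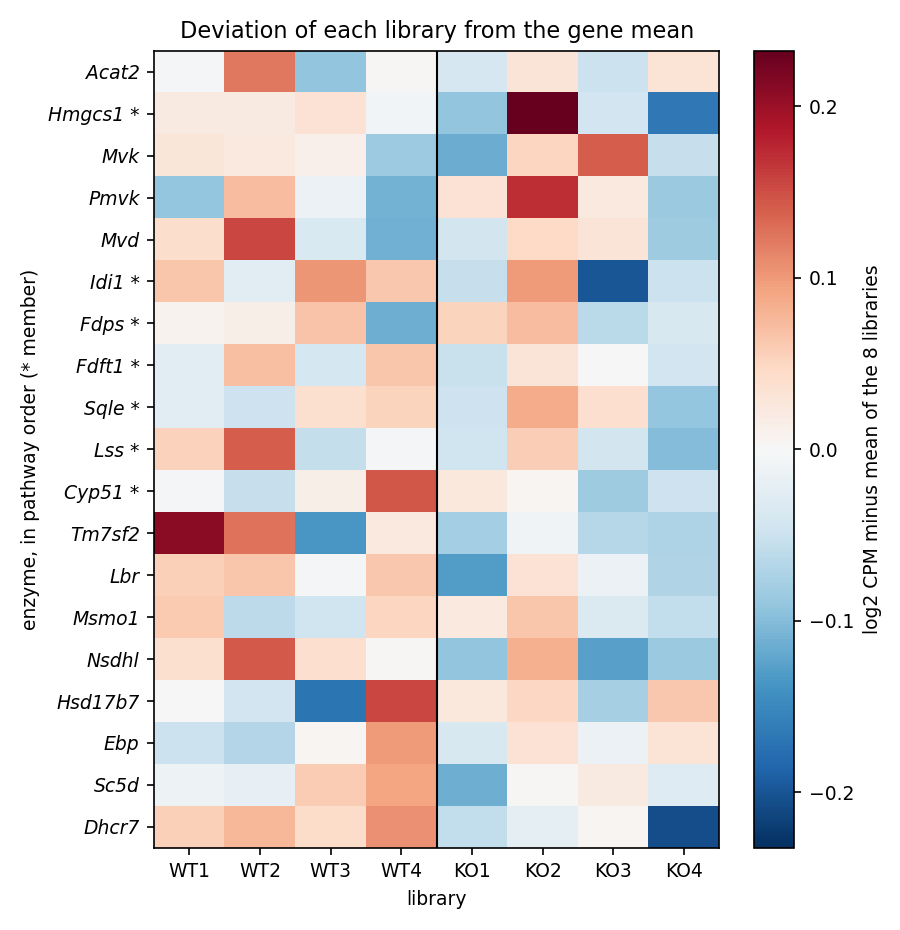
Log2 CPM of enzymes of the pathway (rows, in pathway order, members starred) minus the gene's mean over the 8 libraries (columns), on a colour scale in which red is above and blue below the mean. The column of KO replicate 2 holds the highest value of *Hmgcs1*, and that of KO replicate 4 the lowest.

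The mRNA of *Srebf2* was compared with that of each enzyme across libraries. Over the 8 libraries Pearson's r between *Srebf2* and the 7 enzymes ran from −0.46 for *Fdps* to 0.70 for *Fdft1*, and none of the 7 relations passed adjustment. *Fdft1* had r = 0.70 (two-sided exact permutation p = 0.0555, Benjamini-Hochberg adjusted p = 0.226) and Spearman's rho = 0.71 (exact permutation p = 0.0576, adjusted p = 0.291). *Lss* had r = 0.68 (exact permutation p = 0.0644, adjusted p = 0.226) and rho = 0.67 (exact permutation p = 0.0831, adjusted p = 0.291). When WT replicates 2 and 3, the libraries farthest from the median of *Srebf2*, were left out, r was 0.49 for *Fdft1* and 0.41 for *Lss*, and on deviations from the genotype means it was 0.68 and 0.66. For the other 5 enzymes the adjusted exact permutation p of r lay between 0.598 (*Fdps*) and 0.941. Between the 7 enzymes themselves, r was above 0 in 18 of 21 pairs, with a median of 0.32 over the 8 libraries and of 0.35 on deviations from the genotype means. It ran from −0.36 for *Fdps* with *Fdft1* to 0.74 for *Hmgcs1* with *Sqle*. The pairs share genes, and the share of pairs above 0 among other genes is not given here. These values share their libraries and the scaling of each, and are given as a description.

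Genes whose pattern over the 8 libraries came closest to the median profile of the 7 enzymes, outside the gene lists, were *Mtmr1* (r = 0.95), a phosphoinositide phosphatase, *Inafm1* (r = 0.94), *Rfc5* (r = 0.94), a subunit of the clamp loader of DNA replication, *Ctps2* (r = 0.92), a CTP synthase, and *Epc2* (r = 0.91), a chromatin factor. They were the 5 highest of 11317 correlations over 8 points, which is why no p is given. Of the first 10 genes by Pearson's r and by Spearman's rho, 4 were shared. *Stard4*, the sterol carrier and an SREBP2 target, ranked 13 (r = 0.90), while *Srebf2* ranked 4755 (r = 0.09).

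The 13 genes that control SREBP processing and degradation included none with an edgeR adjusted p below 0.05, and 2 of them, *Insig1* and *Rnf145*, were lower in KO at an unadjusted P below 0.05 (4.91% of all tested genes were), with a median log2 fold change of −0.01 over the 13. *Insig1*, which retains SCAP when sterols are high and is itself an SREBP target, had 224, 229.7, 239 and 242 CPM in WT and 200.2, 227, 227 and 211 CPM in KO. KO replicates 1 and 4 were below every WT library and KO replicates 2 and 3 within the WT range (change −7.34%, 95% interval −13.4% to −0.864%, edgeR adjusted p = 0.469). *Rnf145*, an ubiquitin ligase of the endoplasmic reticulum that responds to sterols, had 161 ± 6.05 CPM (SD, n = 4) in WT and 148 ± 7.99 CPM (SD, n = 4) in KO (edgeR adjusted p = 0.425). With KO replicates 1 and 4 both left out, the log2 fold changes were −0.04 for *Insig1* and −0.06 for *Rnf145*. That pair was chosen from an earlier look at these data and held the lowest KO values of both genes, so a smaller change was built in. *Scap*, the escort of SREBP2, changed by 4.22% (95% interval −2.75% to 11.7%, edgeR adjusted p = 0.807), and *Srebf1*, the paralogue that drives fatty acid genes, by −2.73% (95% interval −8.71% to 3.65%, adjusted p = 0.867). *Mbtps2*, the site-2 protease that releases SREBP, had an edgeR adjusted p of 0.680.

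Among 14 genes of sterol uptake and transport, 13 were tested, with none at an edgeR adjusted p below 0.05 and 2, *Npc1* and *Stard3*, lower at an unadjusted P below 0.05, against 4.91% of all tested genes. The median log2 fold change of the 13 was −0.05. *Npc1*, the lysosomal membrane protein that exports cholesterol, had 105, 107, 104 and 106 CPM in WT and 89.7, 92.6, 99.5 and 85.0 CPM in KO. Every KO library of *Npc1* was below every WT library, as in 2.63% of all tested genes (two-sided exact permutation test p = 0.0286), with a log2 fold change of −0.20, a standard error of 0.0510, an edgeR P of 8.02e-04 and an adjusted p of 0.102. With DESeq2 the adjusted p of *Npc1* was 0.0385, and it ranged from there to 1.00 over the 17 alternatives and was below 0.05 in 2. With KO replicates 1 and 4 both left out, the log2 fold change of *Npc1* was −0.14, with an edgeR P of 0.0355. Its lysosomal partner *Npc2* had an edgeR adjusted p of 0.583 and *Stard3*, a late endosomal sterol carrier, one of 0.485.

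Of 16 genes of LXR signalling, efflux, esterification and oxysterol metabolism, 12 were tested, and *Nr1h3*, *Ch25h*, *Cyp27a1* and *Cyp7b1* were not analysed here. None passed at an edgeR adjusted p of 0.05, and 2, *Abca1* and *Cyp11a1*, were higher in KO at an unadjusted P below 0.05 (4.38% of all tested genes were), with a median log2 fold change of 0.03 over the 12. *Abca1*, the transporter that loads cholesterol onto apolipoprotein and a target of LXR, had 22.6, 20.6, 22.8 and 27.0 CPM in WT and 37.7, 26.5, 29.9 and 38.8 CPM in KO. KO replicates 1 and 4 were the highest, and KO replicate 2 fell just under WT replicate 4, so that the genotypes overlapped. *Abca1* had a log2 fold change of 0.51, a standard error of 0.112, an edgeR P of 1.94e-04 and an adjusted p of 0.0617 (two-sided exact permutation test p = 0.0571). Its adjusted p ranged from 0.00345 to 1.00 over the 17 alternatives and was below 0.05 in 6, with DESeq2 at 0.00765. With KO replicates 1 and 4 both left out the log2 fold change of *Abca1* was 0.28, with an edgeR P of 0.0240. *Abcg1*, the other LXR-driven efflux transporter, had 45.4 ± 3.71 CPM (SD, n = 4) in WT and 42.4 ± 3.11 CPM (SD, n = 4) in KO, a log2 fold change of −0.10 (edgeR adjusted p = 0.780). *Cyp11a1*, which starts steroid hormone synthesis, had 7.08 to 11.5 CPM in WT and 7.77 to 17.4 CPM in KO, with a log2 fold change of 0.56 (edgeR adjusted p = 0.343) that was 0.09 with KO replicates 1 and 4 left out. *Rxra*, a partner of LXR, had an edgeR adjusted p of 0.748.

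**Figure D4:**
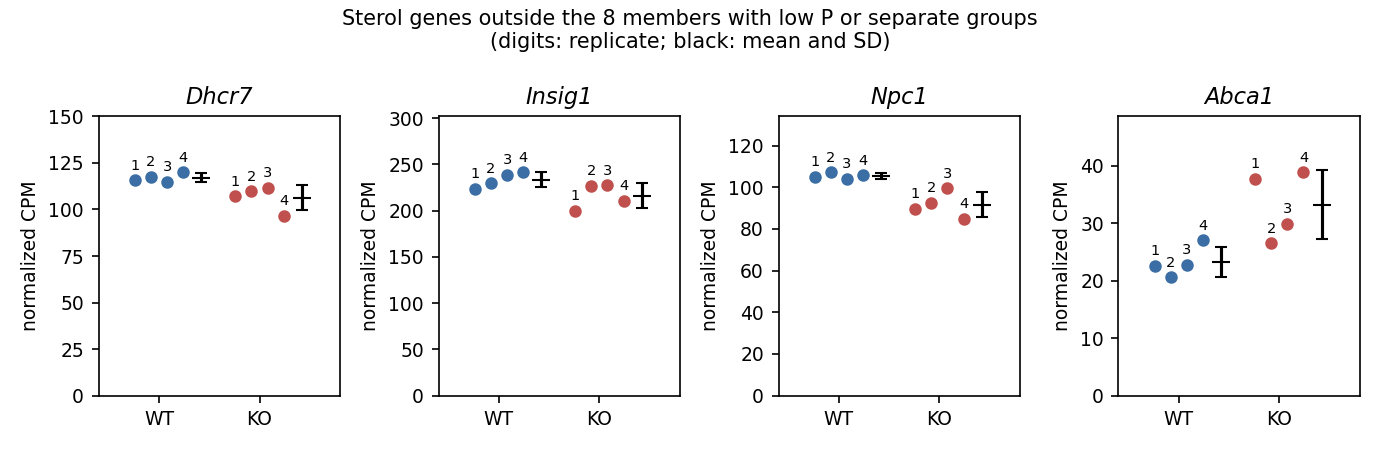
Normalized CPM (vertical axes, starting at 0) of *Dhcr7*, *Insig1*, *Npc1* and *Abca1* in each WT (blue) and KO (red) library, with the replicate number above each point and the group mean and SD in black. For *Dhcr7* and *Npc1* all KO points are below all WT points, and for *Abca1* KO replicates 1 and 4, at 37.7 and 38.8 CPM, stand above the rest.

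The fatty acid branch, whose genes answer to SREBP1 more than to SREBP2, was tested in 15 of 17 genes (*Scd3* and *Me1* were not analysed here). None had an edgeR adjusted p below 0.05, and 4, *Elovl5*, *Scd1*, *Fasn* and *Scd2*, were lower in KO at an unadjusted P below 0.05, against 4.91% of all tested genes, with a median of 0.00 over the 15. *Scd1*, a fatty acid desaturase, had 997 ± 93.9 CPM (SD, n = 4) in WT and 904 ± 33.4 CPM (SD, n = 4) in KO (log2 fold change −0.14, edgeR adjusted p = 0.357). *Fasn*, fatty acid synthase, had 913 ± 41.3 CPM (SD, n = 4) and 854 ± 18.7 CPM (SD, n = 4) (log2 fold change −0.10, edgeR adjusted p = 0.416). *Elovl5*, an elongase, had a log2 fold change of −0.14 (edgeR adjusted p = 0.349) that was −0.07 with KO replicates 1 and 4 left out.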

How the data were processed

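RNA-seq libraries came from 4 WT and 4 KO cultures. According to the methods and the submitters' processing notes, reads were aligned to GRCm39 with STAR 2.7.8a, and expression was estimated in Partek Flow by its E/M method. The authors deposited these estimated counts, filtered but not normalized, and 0 other columns held samples. The annotation version is not given in the sources used here. Estimated counts were rounded, filtered with edgeR's filterByExpr (minimum count 10, leaving 11317 of 11911 genes), scaled by TMM (factors 0.993 to 1.00) and compared in edgeR 4.0.16 under R 4.3.3 by the quasi-likelihood test (glmQLFit and glmQLFTest) in a model of genotype alone. P-values were two-sided and adjusted by the Benjamini-Hochberg method across every gene tested. Standard errors are those implied by the F statistic. Single genes were also compared by exact permutation over 70 arrangements, on log2(CPM + 0.5). Totals did not differ beyond their spread (exact permutation p = 0.743), and depth limits cover counting error only. Every pair of libraries in a group differed by more than counting error (chi-square per degree of freedom 2.59 to 6.29). The closest pairs were KO replicates 1 and 4, at 2.59, and WT replicates 1 and 2, at 2.70. Other KO pairs had 3.78 to 4.85 and other WT pairs 4.95 to 6.29. Whether a closest pair shared a mouse was not tested.

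The members and gene lists were chosen with earlier results of these data known. The genes named are all members, *Insig1*, *Scap*, *Srebf1*, *Dhcr7*, *Abca1* and *Abcg1*, the 3 genes of smallest P in each list, and the 5 most like the enzymes' median profile. Some genes of the rule and lists are counted but not reported here by name. *Stard4*, *Pmvk*, *Scd2*, *Tdrd3* and the cell type markers were named besides these, the first 3 after their values were seen. Alternatives were the test of DESeq2 1.42.0, voom with quality weights (limma 3.58.1), scaling by DESeq2 size factors or by library size alone, no filter or a stricter one of 10 counts in each library, a replicate block, 1 surrogate variable of sva 3.50.0, each library left out, and KO replicates 1 and 4 left out together, which an earlier look at these data had seen stand apart. KO replicates 1 and 4 were the KO libraries farthest from the WT mean in *Dhcr7*, *Insig1*, *Rnf145*, *Npc1*, *Abca1*, *Cyp11a1* and *Elovl5*. A smaller change of these genes without that pair is therefore built in. On simulated counts for KO against WT with 11317 genes, 50 genes were changed at each of 4 sizes. Of genes changed 1.5-fold 92% were recovered, of those changed 1.25-fold 58%, 2-fold 90% and 3-fold 98%, and no smaller change was simulated. The draws used independent libraries and the spread typical of a gene's level, so spread particular to a gene or library was not simulated. Transcript lengths, starts and exon overlaps came from GENCODE M39 (GRCm39), in which 11910 identifiers were found with overlapping spans. Of these, 1817 had the GENCODE start and an end 1 base before the table's end column, and 67 had the same start and end. Most genes matched in neither way, so their spans differ from GENCODE M39. The end column was taken to lie 1 base past the last base, and ends are given here with that base removed.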

Additional observations from a re-analysis of the deposited data

Results flagged for a closer look

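In 3 of 68 groups of 4 libraries (34 genes chosen by the naming rule in each genotype), 1 library stood far from the other 3 by Dixon's test, where chance flags about 1 in 20 groups, or 3.40 here. *Abcg1* had 50.9 CPM in WT replicate 1 against 43.0 to 44.1 CPM in the other WT libraries. *Lbr* had 335 CPM in WT replicate 3 against 349 to 351 CPM. *Stard3* had 21.3 CPM in WT replicate 4 against 25.0 to 25.2 CPM. No group of a member was among them, KO replicate 2 of *Hmgcs1* included.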

How the results depend on the processing

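No member had an adjusted p below 0.05 in any of the 17 alternatives, and the members' median log2 fold change stayed between −0.057 and −0.0060, that of the other 14 enzymes between −0.060 and −0.013. With 1 library left out at a time, the number of members with an unadjusted P below 0.05 was 0 to 2 (*Hmgcs1* and *Idi1* without KO replicate 2, and *Idi1* without WT replicate 2), and that of the other enzymes, 2 with all libraries, was 0 to 5. The latter was 1 with a surrogate variable, 1 with the replicate block, and 0 with KO replicates 1 and 4 both left out. With all libraries, 9.3% of all tested genes had an unadjusted P below 0.05. The share in each of these other fits is not given here, so the counts have no background of their own. Genes of all kinds with an adjusted p below 0.05, 30 as reported, numbered 81 with DESeq2, 87 with the replicate block, 95 with voom, 3 with KO replicates 1 and 4 both left out, and 6 to 162 with 1 library left out (162 without KO replicate 2). The cause was not tested.

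Of the 34 genes chosen by the naming rule, *Hmgcs1*, *Sqle* and *Fdps* alone changed sign in any alternative, none of them with an adjusted p below 0.05. *Hmgcs1* had a log2 fold change of 0.0034 with a surrogate variable, 0.083 with KO replicates 1 and 4 both left out, and −0.12 to 0.022 with 1 library left out. *Sqle* had 0.0045, 0.059 and −0.038 to 0.023 in the same settings, and *Fdps* −0.023 to 0.037 with 1 library left out. Of 578 pairs of such a gene and an alternative, 557 kept direction and call, 12 changed sign and 9 gained a call. A call here is an adjusted p below 0.05, which none of the 34 genes had with all libraries. Keeping the call therefore meant staying without one. *Npc1* and *Abca1* kept an unadjusted P below 0.05 in all 17 alternatives. *Insig1*, *Rnf145*, *Stard3*, *Cyp11a1*, *Scd1*, *Fasn* and *Elovl5* each lost it in at least 1 fit without a single library. Libraries of the same number differ in genotype and hence in mouse. The deviations of same-numbered pairs correlated at −0.046 to 0.069, with 1 of 8 libraries closest to its own number, so the block is an alternative and not a paired analysis. In the simulation 92% of 1.5-fold and 58% of 1.25-fold changes were recovered. Changes as small as those of the members were not simulated.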

Other observations

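The isoprenoid branch, which leaves the pathway at farnesyl diphosphate, held none of 9 genes at an unadjusted edgeR P below 0.05, against 9.3% of all tested genes. With so few genes, a count of none is little different from that share. The log2 fold changes of the branch lay between −0.06 and 0.08. The 3 genes of smallest P were *Fnta* and *Fntb*, the subunits of farnesyltransferase, with log2 fold changes of 0.07 and −0.06 (edgeR adjusted p = 0.843 and 0.887), and *Pdss1*, which makes the ubiquinone side chain, with 0.07 (edgeR adjusted p = 0.883). Exons of *Fntb* overlap those of *Churc1* on the same strand.

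Proliferation genes, from *Mki67* to the *Mcm* helicase subunits, likewise held none of 12 at an unadjusted edgeR P below 0.05, against 9.3% of all tested genes. Their log2 fold changes ran from −0.05 to 0.02, with 10 below 0, where 49.4% of all tested genes were below 0. *Top2a*, *Ccna2* and *Mcm4* had the smallest P, with log2 fold changes of −0.05, −0.05 and −0.04 (edgeR adjusted p = 0.718, 0.758 and 0.834).

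Of the Treg markers, 4 of 6 were lower in KO at an unadjusted edgeR P below 0.05, namely *Foxp3*, *Il2ra*, *Ikzf2* and *Ikzf4*, against 4.91% of all tested genes, and none had an adjusted p below 0.05. *Il2ra* had a log2 fold change of −0.13 with every KO library below every WT library, as in 2.63% of all tested genes (edgeR adjusted p = 0.152). Both CD8 markers were lower in KO at an unadjusted P below 0.05, *Cd8a* with 11.3 CPM in WT replicate 3 and 0.873 to 1.37 CPM in the other WT libraries (edgeR adjusted p = 0.233) and *Cd8b1* with an edgeR adjusted p of 0.499.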
